A study of Mus musculus with 2 samples.

Results

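The members described here are 801 nanopore alignments that minimap2 could not place at 1 position of the mouse genome with confidence, out of 12642 alignments deposited for 2 libraries. They were chosen by the mapping quality of each alignment, which had to be below 30, on chromosomes 1 to 19 or on contigs without a chromosomal place, outside 8 listed places. The II1 T-DOM 542 library held 236 members among 3447 alignments that met every condition but mapping quality. The II1 T-DOM 320 library held 565 among 7834. Because mapping quality chose the members, all values of it below are a description and support nothing.

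The study moved II1, an enhancer of distal limb, into T-DOM, the neighbouring domain that holds proximal limb enhancers of the Hoxd genes. The inserted loci of 2 founder lines were read by nCATS, in which Cas9 cuts purified DNA on both sides of a target and adapters are ligated to the fresh ends. DNA came from untreated yolk sacs of E12.5 embryos, from crosses of heterozygous adults of strain B6CBAF1, with 1 library for the II1 T-DOM 542 genotype and 1 for II1 T-DOM 320. There were no replicates and no wild-type library, so a test between the libraries compares 2 libraries and not 2 alleles. Per the methods, the mice were kept in a back cross with C57BL6 × CBA F1 hybrids, while the mm10 reference is C57BL/6J. Neither the sex of the embryos nor the share of each parental strain in them is given.

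The data went against the working name of dispersed repeats in 2 ways. First, 204 of the 801 members (25.5%, 95% Clopper-Pearson interval 22.5 to 28.6%) lay on a single unplaced contig of 114452 bp that ends in a tandem array, and these held 54.2% of all member bases. Second, of the 798 members whose reference sequence was at hand, 89 (11.2%, 9.05 to 13.5%) had 24-mers that typically occur once in mm10. They are therefore called ambiguous alignments, or members. The place printed for a member is 1 of the copies to which its read could belong, so a gene or coordinate named below is the place of the reference sequence and not a known origin of the read.

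Several kinds of sequence occur many times in a mouse genome. LINE-1 elements copy themselves through RNA with a reverse transcriptase that they encode, often lose their 5′ part on insertion, and still move in mice. Endogenous retroviruses carry a long terminal repeat at each end, start reverse transcription from a host tRNA that pairs with a primer binding site just inside the first repeat, and duplicate a few bases of the target when they insert. Satellite DNA forms long arrays of 1 unit around centromeres, and large segmental duplications hold whole genes in near-identical copies.

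Sequences that illustrate the members are shown first, all read from GRCm38 (mm10). The array on the unplaced contig repeated with a period of 234 bp. The 2 neighbouring units below are the pair with the fewest differences within the longest array member of mapping quality 0, from 109065 to 109532 on the plus strand of the contig, with the 11 differing bases in capitals. They are the most alike pair in that member and not a typical one, and show the unit and how 2 copies of it differ.
unit 1: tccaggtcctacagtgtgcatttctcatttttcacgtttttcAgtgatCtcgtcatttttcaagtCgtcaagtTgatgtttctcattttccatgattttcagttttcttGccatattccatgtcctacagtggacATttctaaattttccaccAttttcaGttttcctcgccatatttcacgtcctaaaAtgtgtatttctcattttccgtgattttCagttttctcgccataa
unit 2: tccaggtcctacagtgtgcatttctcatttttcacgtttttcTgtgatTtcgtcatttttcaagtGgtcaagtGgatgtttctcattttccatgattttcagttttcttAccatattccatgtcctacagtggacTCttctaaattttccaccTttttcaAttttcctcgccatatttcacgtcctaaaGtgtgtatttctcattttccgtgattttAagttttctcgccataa

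The longest member of mapping quality 0 in the largest sequence group lay at chr6:123545236-123589791, and its most similar other copy began at chr6:123429891. This member of 44556 bp was not typical of its group. Its 24-mers occurred a median of 2 times in mm10, and 60.7% of it was soft-masked. The medians of the group were 286 copies, 99.8% masking and 1957 bp. The windows below, chr6:123547678-123547797 and chr6:123432333-123432450, both on the plus strand, hold 2 of the 8 bases by which the copies differ, in capitals in the copy that has them.
group 1 member: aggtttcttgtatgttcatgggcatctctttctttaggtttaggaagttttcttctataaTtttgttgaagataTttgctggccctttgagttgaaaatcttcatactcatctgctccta
group 1 copy: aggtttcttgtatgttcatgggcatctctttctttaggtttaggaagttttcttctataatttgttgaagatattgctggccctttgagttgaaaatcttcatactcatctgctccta

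For members that matched LINE-like elements, the windows come from the longest one of mapping quality 0 whose best other copy is not identical. The member window is chr1:66544843-66544962 on the minus strand, in the gene Unc80, and its copy lies on another chromosome, at chr7:96011278-96011397 on the plus strand. A single substitution, in capitals, stands in these 120 bases. This pair was added after the data had been seen.
LINE-like member: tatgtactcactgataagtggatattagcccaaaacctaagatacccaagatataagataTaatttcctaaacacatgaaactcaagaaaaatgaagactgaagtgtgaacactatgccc
LINE-like copy: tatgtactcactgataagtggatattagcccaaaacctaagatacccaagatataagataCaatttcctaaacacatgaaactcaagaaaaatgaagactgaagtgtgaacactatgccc

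Retroviral members were recognised by a primer binding site beside the first of 2 long direct repeats. The 2 commonest sites complementary to tRNA-Phe and the commonest one for tRNA-Leu are shown with the end of a tRNA gene each, to which CCA is added in the cell. The Phe sites are chr1:91477956-91477973 and chr1:47227604-47227621, the Leu site is chr1:73873737-73873754, and the tRNA genes end at chr10:80248964-80248978 and chr10:12922571-12922585, all on the minus strand. Capitals mark bases of a site that do not pair with the tRNA.
Phe site 1: tggtgccgaaTTccggga
Phe site 2: tggtgccgaaacccggga
tRNA-Phe end: tcccgggtttcggca
Leu site 1: tggtaccaggagtggTTC
tRNA-Leu end: accccactcctggta

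In 5 reads an LTR-like member was accompanied by 2 confident flanks that overlapped by 5 or 6 bases of the reference. These windows, on the plus strand, give the reference at those breaks, with the bases covered by both flanks in capitals. They are chr1:134950596-134950660, chr15:73083892-73083957, chr11:107957539-107957604, chr1:58627453-58627517 and chr10:99577658-99577723, in this order.
break 1: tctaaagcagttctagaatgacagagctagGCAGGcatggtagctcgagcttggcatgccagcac
break 2: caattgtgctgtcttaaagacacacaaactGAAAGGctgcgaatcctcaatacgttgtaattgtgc
break 3: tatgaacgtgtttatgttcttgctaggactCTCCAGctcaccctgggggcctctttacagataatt
break 4: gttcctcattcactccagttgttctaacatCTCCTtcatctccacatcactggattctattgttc
break 5: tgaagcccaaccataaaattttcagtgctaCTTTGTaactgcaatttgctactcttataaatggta

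The last sequence is the place with the most reads after the array, chr6:122640535-122640605 on the plus strand. Capitals mark 15-mers that occur more than once in it, which is nearly all of it.
group 3: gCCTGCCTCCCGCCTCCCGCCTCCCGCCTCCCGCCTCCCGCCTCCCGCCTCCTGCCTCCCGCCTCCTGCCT

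Members made up a similar share of the 2 libraries. In the 542 library they were 6.85% of eligible alignments (95% Clopper-Pearson interval 6.03 to 7.74%), on 214 reads, and in the 320 library 7.21% (6.65 to 7.81%), on 456 reads. These intervals, like all below, cover counting error only, and alignments of 1 read are not independent. Counted as aligned bases, members were 5.24% of the 542 library and 4.46% of the 320 library. Most of them had a mapping quality of 0 or 1, 55.5% and 54.9%, so most members were far below the threshold. Keeping the 8 listed places raised the share to 18.7% in the 542 library and to 8.43% in the 320 library.

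Members were shorter than confident alignments, which have a mapping quality of at least 30. In the 542 library their median length was 1535 bp, against 2242 bp for confident alignments. In the 320 library it was 2679 bp, against 5763 bp. Members on the array contig were longer than confident alignments, with medians of 3924 bp in the 542 library and 9065 bp in the 320 library. The other members had medians of 1126 and 1255.5 bp. The ambiguous share was highest among short alignments. In the 542 library it was 16.1% under 500 bp, between 5.41% and 5.72% in the 3 bins from 1 to 10 kb, and 4.42% at 10000 bp or more. In the 320 library it was 20%, between 6.37% and 6.92%, and 3.72%. Without the unplaced contig the share went down in the middle bins of the 320 library as well, from 5.84% to 4.89% and 4.15%, and was 5.03%, 3.65% and 3.85% in the 542 library. Among the longest alignments it was then 0.465% (0.0118 to 2.56%) in the 542 library and 0.996% (0.632 to 1.49%) in the 320 library. Long ambiguous alignments were therefore mostly array: of the 99 members of 10000 bp or more, 75 lay in it (75.8%, 66.1 to 83.8%).

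**Figure D1:**
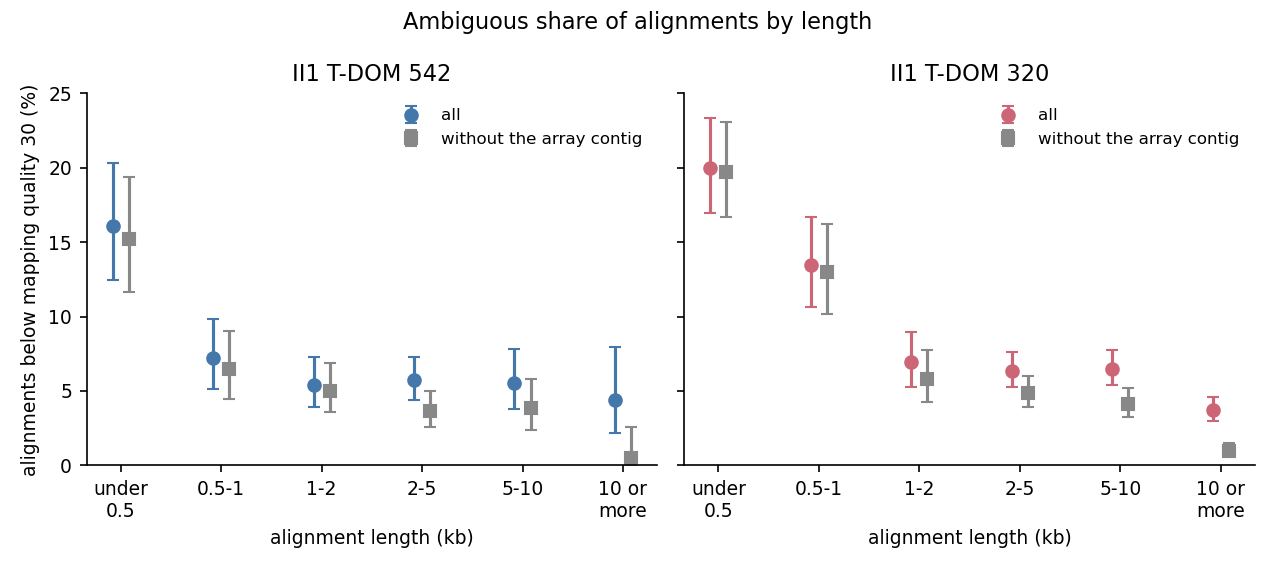
Share of alignments with mapping quality below 30 (y axis, percent) by alignment length (x axis, kb), for the 542 library on the left and the 320 library on the right, with 95% Clopper-Pearson intervals as bars. Circles are all alignments and squares leave out the unplaced contig of the array; at 10 kb or more the squares drop to 0.465% and 0.996%.

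The reference under the members was repetitive by measures that the aligner does not report. In the 542 library the median member was soft-masked over 96.3% of its length and the median confident alignment over 25.3%. In the 320 library these values were 95.0% and 26.5%. The 24-mers of a median member occurred 31.5 times in mm10 for II1 T-DOM 542 and 19.5 times for II1 T-DOM 320, while those of confident alignments occurred 1 time in both. The member values depended on the measure and on the array: without its contig they were 53 and 11, and with 50-mers they were 5 in both libraries. Masking was 60.7% among members of mapping quality 0 in the 320 library. Repetitive sequence lowers mapping quality by construction, so these differences were not tested. The values just inside and just outside the threshold differed between the libraries. In the 542 library the 12 members of mapping quality 25 to 29 had a median of 129 copies and 100% masking, and the 18 alignments of 30 to 34 had 23 copies and 94.9%. In the 320 library both bins held 34 alignments, with 8.5 and 8 copies and with 79.6% and 64.4% masking.

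Members were sorted into 6 kinds by sequence, of which the LINE-like and LTR-like matches of single members were defined after the data had been seen. LINE-like members matched an element with a long reading frame that holds the reverse transcriptase catalytic motif, and there were 156 of them (19.5%, 16.8 to 22.4%). LTR-like members matched an element with 2 direct repeats and a primer binding site, and there were 94 (11.7%, 9.59 to 14.2%). The array contig held 204, of which all but 1 overlapped the array itself. Of the others, 90 were interspersed repeats by masking, 76 were tandem, 178 were mostly unmasked (22.2%, 19.4 to 25.3%), and 3 lay on contigs whose sequence was not at hand. By median copy number, LINE-like and LTR-like members stood far above the other kinds. The median 24-mer occurred 5380 times for LINE-like members, 700.5 times for LTR-like members and 21 times on the array contig. It occurred 7 times for other interspersed members (quartiles 2 to 15.75), 6 times for other tandem members (2 to 22.25) and 2 times for unmasked members (1 to 6), with quartile ranges that overlap. With 50-mers the lowest kind changed, and the values were lower for every kind with sequence but unmasked members, whose medians per library stayed the same. In the 542 and 320 libraries they were 1000 and 1186 for LINE-like members, 253 and 324 for LTR-like members, 3 and 2 for unmasked members, and 1 in both for other tandem members.

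**Figure D2:**
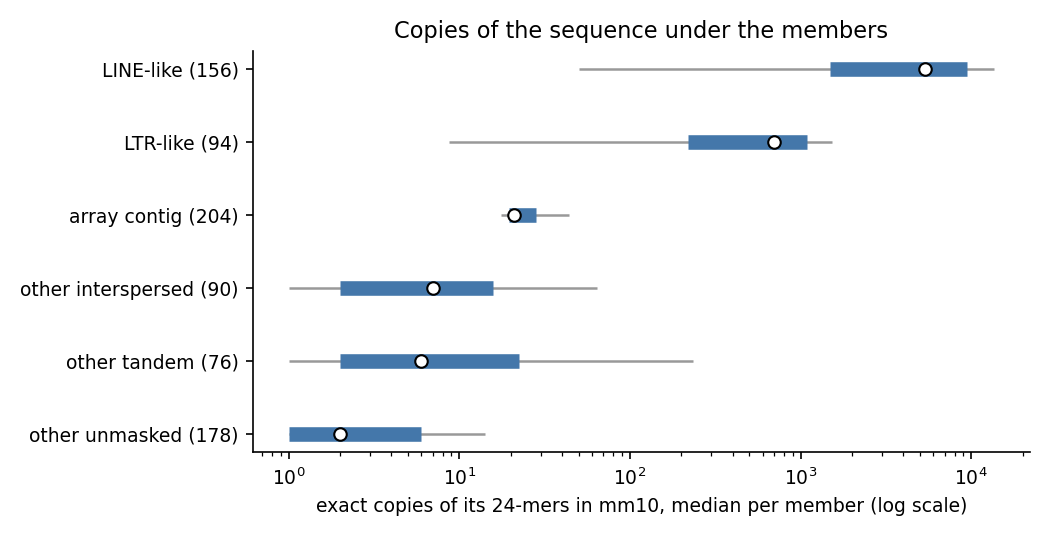
Exact copies in mm10 of the 24-mers under each member (x axis, log scale, median over a member's 24-mers) by kind of member (y axis, with the number of members, both libraries together). Circles are medians, thick bars quartiles and thin lines the 5th to 95th percentile; LINE-like members stand highest, at a median of 5380, and unmasked members lowest, at 2.

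LINE-like members took a larger share of the 542 library, 28.4% (67 of 236, 22.7 to 34.6%), than of the 320 library, 15.8% (89 of 565, 12.8 to 19%). The 2 intervals do not overlap, and neither did they without the array contig, at 36.6% (29.6 to 44.0%) and 21.5% (17.6 to 25.8%). Among members of mapping quality 0 they overlapped, at 19.4% (7.45 to 37.5%) and 6.78% (1.88 to 16.5%). This contrast was noticed in the data and no test was made of it. LTR-like members were 10.6% (6.97 to 15.2%) and 12.2% (9.63 to 15.2%), and those on the array contig 22.5% and 26.7%, with intervals that overlap.

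**Figure D3:**
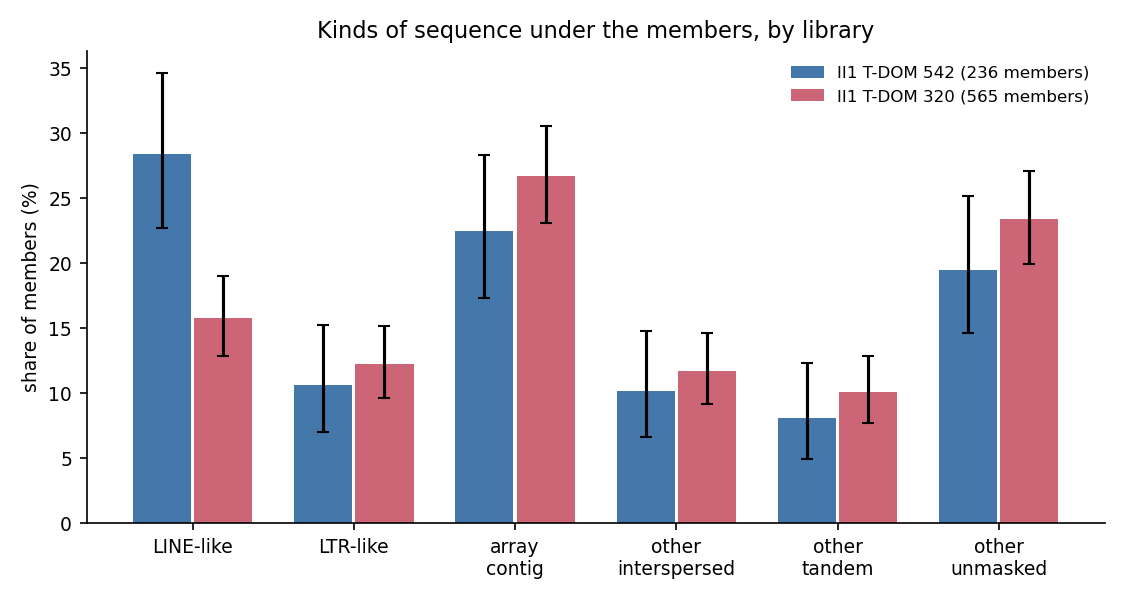
Share of members (y axis, percent) by kind of sequence (x axis), for the 542 library (236 members) and the 320 library (565 members), with 95% Clopper-Pearson intervals as bars. LINE-like members are the kind whose intervals do not overlap, at 28.4% and 15.8%.

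The classes of the design, counted by the longest member of each read, also differed between the libraries. Tandem sequence was under 31% of reads in the 542 library (66 of 213) and 43.4% in the 320 library (198 of 456), adjusted p = 0.00469 by a two-sided Fisher's exact test with Benjamini-Hochberg adjustment. Interspersed repeats were 49.3% and 37.1%, with the same adjusted p of 0.00469 by the exact test, and unmasked sequence 19.7% and 19.5%, adjusted p = 1. Neither call held in every alternative. Without its contig, by the same exact test, tandem reads were 10.6% and 16% (adjusted p = 0.187) and interspersed reads 63.4% and 55.4% (adjusted p = 0.187). Among alignments of 1000 bp or more the differences kept their direction, with tandem reads 11.5 points higher in the 320 library, but the adjusted exact p was 0.0738 for tandem and 0.137 for interspersed reads. Among members of mapping quality 0 the tandem difference turned (adjusted exact p = 0.80) and the interspersed call was lost (0.754).

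LINE-like members are, by their definition, those that match an element with a long reading frame. The search for reading frames of 1000 codons or more found 39 such elements under members, with a median length of 6725 bp. The frame was exactly 1300 codons long in 22 of them, and 33 had a second, shorter frame upstream, most often of 384 codons (14 elements). As background, LINE-1 elements carry 2 such frames, the longer one with the reverse transcriptase. Along 1 complete element at chr15:5266778-5273777, on the plus strand, members covered the middle and 3′ part of the long frame more than the 5′ part of the element. Of the members that aligned to it, 48 in the 542 library and 64 in the 320 library, an average of 38% and 49.3% covered the 3′ part of the long frame, split at its middle, against 16.5% and 20% before that frame and 23.3% and 34.5% after it. Coverage was lower on both sides of the frame than in its 3′ part, in both libraries. Elements entered only where a member overlapped the long frame itself, which favours coverage of the frame. No conclusion is therefore drawn from this profile. Members of 5000 bp or more, which could span most of an element, numbered 7 and 17.

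**Figure D4:**
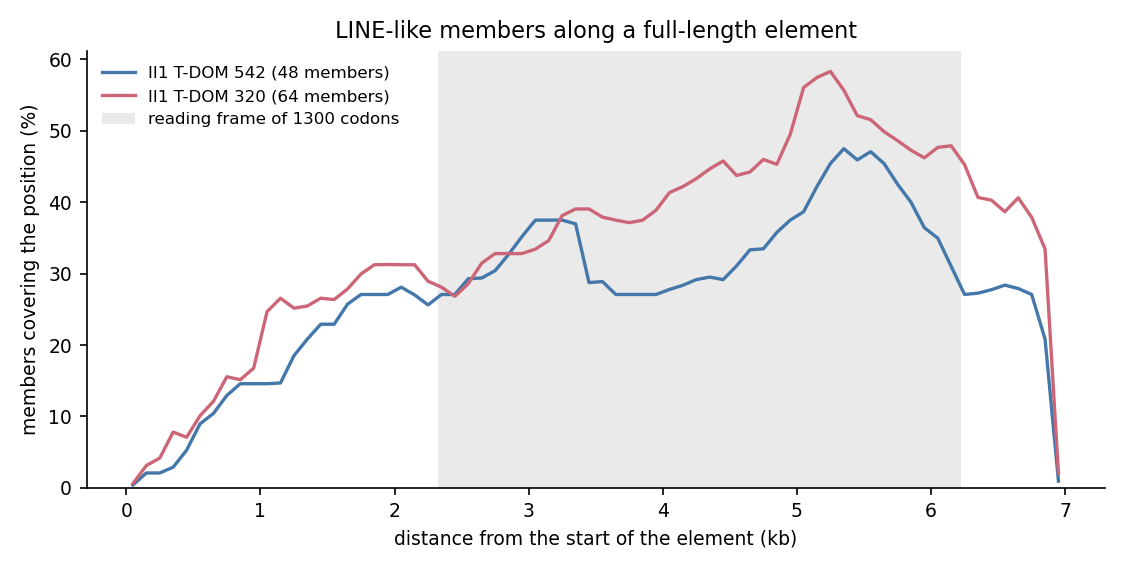
Share of LINE-like members that cover each 100-bp step (y axis, percent of the 48 and 64 members aligned to it) along 1 complete element of 7000 bp in the reference (x axis, kb from its 5′ end). The shaded span is the frame of 1300 codons, and elements were kept only where a member overlapped such a frame. Both lines are low at the 2 ends of the element and highest in the 3′ part of the frame, where they average 38% and 49.3%.

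The best other copies found for LINE-like members were more often on another chromosome than on the same one. A search that skips the most frequent seeds found a copy with 90% identity or more over 50% of the member for 50 of 156. Of these 50, 16 (32%, 19.5 to 46.7%) were on the same chromosome, 9 of them within 1 Mb. No share for copies placed at random was worked out. The median identity was 99.6%. An exact copy of 2412 bp, the longest LINE-like member of mapping quality 0, stood 9513 bp away at chr9:52906708-52909119. A gene held the midpoint of 26 of 89 LINE-like members in the 320 library (29.2%) and 18 of 67 in the 542 library (26.9%). Among confident reads, each by its longest confident alignment, it was 50.5% and 50.7%. Of the 156 LINE-like members 1 fell on an exon, and no exon share of confident alignments is given.

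LTR-like members are, by their definition, those that match an element with paired repeats and a primer site. Direct repeats of 200 to 1500 bp were found around 121 of 594 members searched, at 114 distinct elements, and 79 of these (69.3%) had a primer binding site for 1 of 7 tRNAs. The repeats of these 79 elements had a median identity of 99.7%, and 28 pairs were identical. As background, both repeats of a provirus are made from 1 template and are the same on insertion.

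The tRNA of the primer site split these elements into types with their own dimensions. The tRNA-Phe type, the primer of intracisternal A particles by textbook knowledge, had 51 elements with repeats of 357 bp and a whole length of 7052 bp (medians). The tRNA-Leu type, the primer of MERVL elements, had 15 elements with repeats of 494 bp and a length of 6432 bp. A reading frame of 1000 codons or more lay within 11 of the 15 Leu elements and 5 of the 51 Phe elements. The Leu elements were close to uniform, between 6227 and 6477 bp, while Phe elements ranged from 2468 to 9185 bp. The sites differed too, as printed above. Among Phe elements, 18 had a site that paired with the tRNA at every base and 23 shared the first site shown, with 2 mismatches, whereas all 15 Leu sites had 3 mismatches at the far end. Types for Pro (5 elements), Gln, Gly, Ile and Lys (2 each) were rare. No repeat annotation was at hand, so members were not given family names.

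The tRNA-Phe type also had the most members, 16 in the 542 library and 38 in the 320 library. The tRNA-Leu type had 3 and 14, the tRNA-Lys type 3 and 7, and the tRNA-Pro type 0 and 7. Of 79 LTR-like members with a copy of 90% identity or more, 15 (19%, 11.0 to 29.4%) had the best one on the same chromosome. Of these 15 copies, 7 lay within 1 Mb. The median identity was 99.4%. The share that copies placed at random would give was not worked out.

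Some member reads also held a confident alignment, whose place in the read relative to the member is not known. A confident alignment was present in 36 of 214 member reads in the 542 library (16.8%, 12.1 to 22.5%) and in 109 of 456 in the 320 library (23.9%, 20.1 to 28.1%), p = 0.0440 by a two-sided Fisher's exact test. Without the array contig the shares were 22.2% and 34.5%, with an exact p = 0.00601. Among members of mapping quality 0 alone the order turned, with an exact p = 0.715. Among alignments of 1000 bp or more the share was 9.50 points higher in the 320 library, with an exact p = 0.0166.

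The share with a confident alignment differed by kind of member, without a test. For reads whose longest member was LTR-like it was 47.6% in the 542 library (10 of 21, 25.7 to 70.2%) and 54.1% in the 320 library (33 of 61, 40.8 to 66.9%). For LINE-like members it was 19% (12 of 63) and 34.2% (26 of 76). Reads on the array contig stood at the other end, with 0 of 53, which allows up to 5.66%, and 3 of 151 (1.99%, 0.412 to 5.70%). Reads on the array contig thus rarely had a second, confident alignment.

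In 25 reads a member on another chromosome or far away was accompanied by 2 or more confident alignments that lay on 1 chromosome and strand within 20 kb of each other. There were 5 such reads in the 542 library and 20 in the 320 library, out of 11 and 55 member reads with 2 or more confident alignments. LTR-like and LINE-like members made up 10 reads each. In 2 of the 5 reads of the 542 library the confident alignments lay within the listed place on chromosome 3. There were 3 of them in 1 read and 2 in the other, and those taken as flanks overlapped by 185 and 192 bp. These 2 reads hold alignments stacked on 1 short stretch and not the sides of a break. The order of the pieces within a read is not in the tables, so whether the member lay between the flanks is not known. At the low depth of these libraries, no confident alignment of either one crossed any of the 25 meeting points with 100 bp on each side.

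A short overlap recurred among the LTR-like reads, though not in all of them. In 5 of 10 (50%, 18.7 to 81.3%) the flanks overlapped by 5 or 6 bp of the reference, the bases in capitals in the 5 breaks above. The same overlap of 4 to 6 bp was seen in 0 of 10 LINE-like reads, which allows up to 30%. It measured 5 bp with a tRNA-Leu member of 6395 bp (GCAGG, in the gene Ppp1r12b, a myosin phosphatase subunit, 542 library). With tRNA-Phe members in the 320 library it was 6 bp at breaks 2, 3 and 5, with members of 5213, 7073 and 881 bp, and 5 bp at break 4, with a member of 7184 bp. Break 3 lay within Prkca, which encodes a protein kinase C. A further tRNA-Phe member, of 7074 bp, had flanks on chromosome 8 that were 3 bp apart. The other 4 LTR-like reads did not share this layout. Their flanks overlapped by 107, 186 and 229 bp, with members of 7165, 4034 and 3807 bp, and were 73 bp apart with a member of 1888 bp. Members of 6395 to 7184 bp are about as long as the whole elements of their types.

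As background, an inserted element that the reference lacks, with a target-site duplication around it, gives flanks that overlap by the duplicated bases. Whether these 5 reads hold such insertions was not tested, because the tables hold no read sequence, and alignment ends can shift by some bases. Differences between mouse strains, newer insertions and joined reads cannot be told apart here. The overlap was noticed in the data and was not among the planned measures.

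The flanks of LINE-like reads ranged from wide overlaps to wide gaps. In 4 of 10 they overlapped, by 15 bp on chromosome 15 with a member of 6370 bp, by 22 bp within Sptbn1, a spectrin gene, with a member of 667 bp, and by 406 and 1963 bp. In the other 6 they left gaps, of 40 bp on chromosome 16 with a member of 6182 bp, of 88 and 116 bp on chromosome 6 with members of 6937 and 5980 bp, and of 112, 849 and 1092 bp. The difference between the kinds was not tested.

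**Figure D5:**
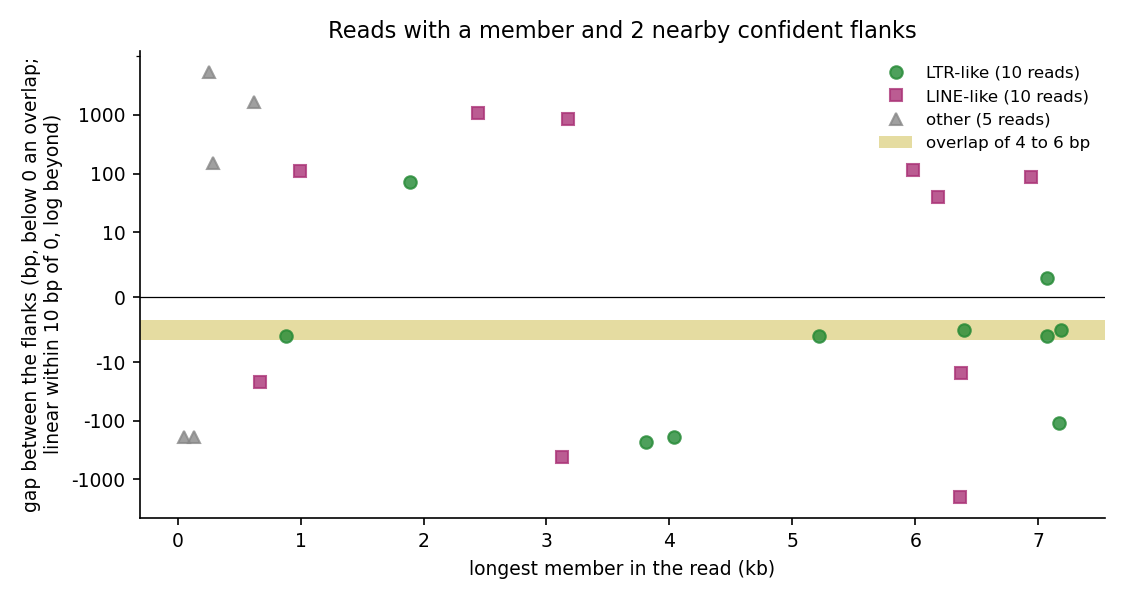
Gap between the 2 confident flanks of a read (y axis, bp, below 0 an overlap, linear within 10 bp of 0 and log beyond) against the length of the longest member in that read (x axis, kb), for 25 reads of both libraries. The band marks overlaps of 4 to 6 bp, where 5 of 10 LTR-like reads (circles) and 0 of 10 LINE-like reads (squares) fall.

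The array on the unplaced contig ran from 68001 to its end at 114452, 46452 bp in all, or 198.5 periods of 234 bp. As background, the mouse major satellite, the main component of pericentromeric DNA, has a unit of this length. Neighbouring stretches of 234 bp were identical at a median of 83.3% of bases, compared without gaps, and at up to 99.6%. Unit 1 above also matched 2 of the 8 listed places that the rule leaves out. The first lies near the start of chromosome 9 and the other on chromosome 2, and in both the median identity of the matches was 78.7%. The matches overlap each other, so their number is no count of units and is not given. The median identity is taken over the same overlapping matches and does not measure how alike whole units are. Sequence related to the array thus also stands in 2 places that the rule left out.

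Reads were piled on the array far above the autosomes outside the listed places. Mean depth there reached 7.66 for II1 T-DOM 542 and 47.1 for II1 T-DOM 320, while it was 0.00504 and 0.0286 on the autosomes outside the listed places, ratios of 1520 and 1647. The ratio was of similar size in the 2 libraries, although the 320 library was deeper. As background, an assembly holds a small part of such arrays. The source of the ratio was not tested. Of alignments on the array, 53 of 59 (89.8%) and 150 of 174 (86.2%) were members. Members there reached 26008 and 40495 bp, and lay on both strands, 26 plus and 27 minus in the 542 library and 65 plus and 85 minus in the 320 library. Within the contig whole stretches were nearly the same: the longest member of mapping quality 0, 10161 bp, had a copy 15088 bp away with 99.9% identity.

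The 178 unmasked members, chosen by their low masking, had few copies, with 24-mers that occurred a median of 2 times. Of the 115 with another copy of 90% identity or more, 94 (81.7%, 73.5 to 88.3%) had it on the same chromosome, at a median distance of 222293 bp. The other interspersed members were alike in this, with 43 of 52 (82.7%, 69.7 to 91.8%), while the share was 53.8% for other tandem members (7 of 13), 32% for LINE-like and 19% for LTR-like members. These shares were not tested against each other. As background, segmental duplications of the mouse often lie close together on 1 chromosome. Midpoints of unmasked members fell in genes for 59 of 132 in the 320 library (44.7%) and 20 of 46 in the 542 library (43.5%). Confident reads were not far above, at 50.5% and 50.7%. On exons fell 9 and 4 of the unmasked members, with no exon share of confident alignments to set beside them.

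One such duplication was on chromosome 14. A member of 38080 bp at chr14:69269807-69307886, which overlaps Slc25a37, a mitochondrial iron transporter, and Synb, an envelope-derived fusion protein of the placenta, had an identical copy of every base at chr14:69488057-69526136. Within the same 1 Mb, 11 members on 8 reads all had mapping quality 0 and a median of 2 copies, and genes under them included Loxl2 and Entpd4b. The densest 1-Mb window on a chromosome was at 20 Mb on chromosome 8, with 22 members on 21 reads, 13 of them unmasked. These windows were chosen after their values were seen.

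Members lay in genes less often than confident alignments did. In the 542 library the midpoint was within an annotated gene for 55 of 214 member reads (25.7%, 20 to 32.1%) and 50.7% of confident reads, adjusted p = 6.75e-13 by a two-sided Fisher's exact test. In the 320 library it was 112 of 456 (24.6%, 20.7 to 28.8%) and 50.5%, adjusted p = 1.34e-27 by the same exact test. The array contig, where no member midpoint lay in a gene, carried part of this. Without its contig members were at 34.6% and 36.5%, still below confident reads, with adjusted exact p = 7.04e-05 and 2.27e-06. Gene overlap was not used by the rule, but the place of a member is 1 of several copies.

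Gene families that stand in clusters overlapped 0 to 6 members each. Of 20 families listed in the design, Vmn2r genes, which encode pheromone receptors, overlapped 1 member in the 542 library and 4 in the 320 library. This was 0.424% of 542 members beside 0.280% of its confident alignments, and 0.708% of 320 members beside 0.206%. Zfp genes, which encode zinc finger proteins, overlapped 0 and 6, or 1.06% of 320 members beside 0.839% of its confident alignments. Olfr genes, the olfactory receptors, overlapped no member in either library, beside 0.187% and 0.592% of confident alignments, shares at which few members would fall in them. No test was made of these counts.

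Few single places outside the array gathered several reads. No place in the 542 library had members of 3 or more reads within 100 bp of each other, and the 320 library had 9. The first was the short GC-rich stretch printed above, with 7 members of 44 to 71 bp on 6 reads, a median GC content of 83.9% and no confident alignment in those reads. The next were chr2:181917289-181919273 with 5 reads, and chr13:3372499-3374300, chr2:22739234-22739735 and chr5:43594016-43594177 with 4 reads each. The last lies in C1qtnf7, a secreted protein of the C1q and TNF family, and in Gm15866, while the other places were outside genes. A further place with 4 reads, in Chl1, a neural cell adhesion gene, tied with these and was left out by the limit of 5. At the chromosome 2 place at 22739234, the reads had a confident alignment in 4 of 4 cases, whereas at the place in C1qtnf7 it was 0 of 4.

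Linking members by sequence gave 1 large group and many single members. Of 148 groups, 128 had 1 member. The largest held 415 members, with all 156 LINE-like and 81 LTR-like ones, joined through chains of partial matches. The members on the array contig were the second, with 204. Groups 3 to 5 had 7, 5 and 5 members. Group 4 was a tandem repeat at chr17:13550655-13553228. None of the 5 differed between the libraries after adjustment: group 1 was in 53.3% and 50.2% of reads (adjusted p = 0.555), the array contig in 24.8% and 33.1% (0.0769), group 3 in 0 of 214 and 6 of 456 reads (0.307), group 4 in 0 and 3 (0.555) and group 5 in 4 and 0 (0.0510), by two-sided Fisher's exact tests.

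The 2 libraries shared few places apart from the array. Of the members, 28.4% in the 542 library (67 of 236, 22.7 to 34.6%) and 30.4% in the 320 library (172 of 565, 26.7 to 34.4%) overlapped a member of the other library. Without the array contig it was 7.65% (4.25 to 13%) and 5.56% (3.55 to 8.22%), beside 4.71% and 2.54% of confident alignments, also without the contig. At this depth most positions of the genome were not covered at all, and the libraries differ in depth, so the shares of the 2 libraries are not on the same scale. On single chromosomes, members per 100 confident alignments ranged from 0 on chromosome 16 to 14.3 on chromosome 8 in the 542 library, with a median of 5.71. In the 320 library they ranged from 1.92 to 9.58, with a median of 5.32.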

How the data were processed

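DNA of E12.5 yolk sacs, in 1 library per allele, was cut with Cas9 and sequenced on nanopores. The authors called bases with Guppy, used minimap2 to map the reads on mm10, kept primary alignments with samtools and wrote BED tables with bedtools. The deposited score, a whole number from 0 to 60, is minimap2's mapping quality. The tables hold more alignments than reads, 12642 on 11448, so a read can have several, as supplementary alignments give. Read sequences, read coordinates and flags are not in the tables.

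Members were alignments of mapping quality below 30 on chromosomes 1 to 19 or on any contig without a full chromosomal place, outside the 8 listed places. They and the lists used here were chosen with earlier results of these data known. Coordinates start from 1. Sequence came from GRCm38 patch release 6, with GENCODE M21 genes and the tRNA genes of RefSeq, and 3 members on contigs that could not be matched to it have no sequence values. Copies are exact matches of sampled 24-mers on both strands, the median per member, which was tested on simulated data. A member was tandem if 20% or more of its 15-mers recur in it, else interspersed if 50% or more of it is soft-masked, else unmasked. Member spans were mapped on the genome and on each other with minimap2 2.31 and grouped by single linkage at 80% identity over 50% of the shorter span. Members of the array contig were set as 1 group without this search.

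LINE-like elements have a reading frame of 1000 codons or more with the reverse transcriptase catalytic motif, and this frame itself overlaps a member. LTR-like elements have direct repeats of 200 to 1500 bp with 90% identity, found with blastn 2.17.0, that start 2 to 10 kb apart, and a site of 18 bases with at most 3 mismatches to a tRNA end (403 genes, 124 distinct ends). The design called groups and not members, and asked for no primer site. Matches of single members to these elements, over 50% of the span, and the primer site were added once values had been seen. The array was the run of 1-kb windows in which 20% of 15-mers occur 10 times or more on the contig.

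Python 3.11.15, numpy 2.4.6, pandas 2.3.3, scipy 1.17.1, numba 0.67.0, Biopython 1.88 and matplotlib 3.10.9 were used. Shares have 95% Clopper-Pearson intervals, and a count of 0 is given with the share of 3 counts where a limit is stated. Tests were two-sided Fisher's exact tests over reads, each read by its longest member, with Benjamini-Hochberg adjustment over the classes, groups or libraries and a level of 0.05. Autosomes had a mean depth of 0.00504 for II1 T-DOM 542 and 0.0286 for II1 T-DOM 320.

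Places named are those with members of 3 or more reads within 100 bp, at most 5 per library by reads, with the genes that hold them, and groups are the 5 largest. Sequence windows of at most 120 bases came from the longest member of mapping quality 0 of each of the 4 largest groups and its closest copy. For the array a pair of whole units is shown in place of such windows, group 3 had no other copy, and group 4 had no member of mapping quality 0. Other places were named after their values were seen. Alternatives changed mapping quality, length, the unit counted, k-mer length, class limits, gene sets and linkage, and leaving out the array contig was added once values had been seen.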

Additional observations from a re-analysis of the deposited data

How the results depend on the processing

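Of 112 alternative values, 62 stayed within the interval of the reported value or kept its direction and side of the threshold, among them both gene comparisons under every alternative run. In 1 library per allele no replicate error can be given, and depth limits what the shared places and single places can show. No paired analysis was possible because each allele had 1 library. The causes of the changes below were not tested.

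The ambiguous share of the 542 and 320 libraries was 0.899% and 0.753% at mapping quality 0, 4.90% and 5.32% below 10, 8.96% and 9.32% below 60, 5.48% and 5.52% for alignments of 1000 bp or more, 5.24% and 4.46% of aligned bases, 5.77% and 5.03% of reads, 18.7% and 8.43% with the listed places, and 5.40% and 5.41% without the array contig. Median masking was 95.1% and 60.7% at mapping quality 0 and 99.9% and 80.1% without the contig. Median copies were 53 and 11 without the contig, 5 in both libraries with 50-mers, and 13 in the 320 library at mapping quality 0.

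At mapping quality 0 the class differences lost their calls or turned (adjusted exact p = 0.80 for tandem and 0.754 for unmasked, both turned, and 0.754 for interspersed). For 1000 bp or more the calls were lost at 0.0738 for tandem and 0.137 for interspersed, and without the contig at 0.187 for both. The unmasked class, which had no call, turned at a masking limit of 80% (0.455), with every alignment counted (0.310) and without the contig (0.588). The share of reads with a confident alignment turned at mapping quality 0 (exact p = 0.715). Group 1 turned at mapping quality 0 (0.790) and without the contig (0.430), and group 2 at mapping quality 0 (0.223). Members shared between libraries were 15.3% in the 320 library at mapping quality 0, 35.2% and 41.7% at 1000 bp or more, and 7.65% and 5.56% without the contig.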
